A study of Mus musculus with 14 samples.

Results

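Interferon-stimulated genes are the genes that cells switch on when they meet an interferon, and in mice many of them sit in families that are named by their prefix. The members described here are the genes of the NK count table whose symbols match Ifi, Ifit, Oas, Gbp, Irf, Stat, Isg, Mx, Irgm, Samd9 or Slfn followed by their number or letter, the PARP genes Parp9, Parp10, Parp11, Parp12 and Parp14, and Rsad2, Bst2, Usp18, Zbp1, Igtp, Iigp1 and Dhx58. The rule took names only and no measured value, and it left out the Ifitm genes. Members were, however, chosen with earlier results of these data known. It found 79 of the 10210 genes listed in the NK table, which is 0.774%. Enough counts for a test were present for 72 of them, among 8471 genes tested in all. The other 7, Ifi207, Ifi209, Ifit1bl1, Ifit3b, Irf4, Slfn1 and Slfn9, are given as levels only. In the table, 4 members match by name alone: Irf2bp1, Irf2bp2, Irf2bpl and Isg20l2 are named after a partner or a relative of a family member.

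NK cells are lymphocytes that kill infected and transformed cells and secrete interferon gamma. All mice were BALB/c females, and injected mice were 8 weeks old and received 100000 4T1-GFP cells, a mouse mammary carcinoma line carrying green fluorescent protein, in the lower left mammary fat pad. An age of 8 weeks is given for the healthy mice too. The 3 groups are NK cells from the spleens of healthy mice (healthy spleen NK, n = 3), from the spleens of mice with a 4T1-GFP tumour (tumour-bearing spleen NK, n = 4) and from the tumours (tumour NK, n = 4). All were enriched magnetically and then sorted for NKp46 and CD45, leaving out cells with CD14, CD31, CD3, EPCAM or GFP, and both spleen groups serve as controls in the design text. Tumours were digested with collagenase A and DNase for 20 min at 37 °C, whereas spleens were crushed and treated with red cell lysis buffer for 5 min on ice, so tissue and handling cannot be told apart between tumour and spleen. The tumour model is 1 cell line in 1 mouse strain, and the labels call the replicates independent without saying whether animals were pooled.

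Type I interferons signal through a receptor with JAK1 and TYK2 to STAT proteins, which join IRF9 and bind interferon-stimulated response elements. Interferon gamma signals through JAK1 and JAK2 to STAT dimers, which bind gamma-activated sites. Many of the induced proteins sense foreign nucleic acid, cut or trap viral products or mark vacuoles that hold microbes, and others, such as Usp18, switch the pathway off.

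Total counts over listed genes ran from 559688 to 1966963 per NK library, and 3 counts, the most that a count of 0 allows, equal 1.54 to 4.60 CPM, the counts of a gene scaled to the library's total. CPM are scaled to TMM effective library sizes throughout. All 9 NK marker genes examined were in the table, with a summed level of 26810 to 27800 CPM in healthy spleen NK, 26080 to 29140 in tumour-bearing spleen NK and 18320 to 23500 in tumour NK. The 10 immediate early and heat shock genes that respond to handling summed to 752.6 to 1075, 881 to 1653 and 4160 to 5985 CPM in the same order, and all 10 were higher in tumour NK than in tumour-bearing spleen NK. Of 8 neutrophil markers 4 were in the table, and their sum was 1.60 to 7.66, 1.44 to 11.1 and 60.5 to 157 CPM, while Retnlg was at 0 in all 7 spleen libraries. Of 11 macrophage and monocyte markers 7 were in the table, with sums of 663.7 to 1009, 647.3 to 944.7 and 787.4 to 1083 CPM, nearly all of it Ly6c2. Csf1r was at 0 in every spleen library and in tumour replicates 1 and 4, and C1qa reached 23.3 CPM in tumour replicate 3 against at most 4.89 in the other tumour libraries. Among dendritic cell markers only Zbtb46 was in the table of 7 examined, at 1.53 to 4.26, 3.60 to 5.31 and 12.3 to 22.8 CPM. Pecam1, which encodes the sorted-out marker CD31, was at 41.4 to 80.4, 74.4 to 93.7 and 138 to 200.4 CPM and was higher in tumour NK than in tumour-bearing spleen NK (log2 1.00 ± 0.17 (SE, adjusted p = 0.00019)). Of 6 fibroblast markers 2 were in the table, with sums of 4.92 to 12.8, 3.03 to 11.7 and 2.88 to 21.2 CPM, and Col1a2 was higher in the same comparison (log2 1.16 ± 0.43 (SE, adjusted p = 0.0467)). The part of these genes and cells in the results was not tested.

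A window of RefSeq sequence before the annotated start, on the GRCm38.p6 assembly (the mm10 build of the counts), was found for 61 of the 79 members. An interferon-stimulated response element core was searched as a pair of GAAA tetramers with 2 bases between them, and a gamma-activated site as TTCNNNGAA, both on both strands, in 250 bases before and 50 after the start. The sequences below show where these letters fall in members that the results turn on: 3 effectors and an immunity GTPase that were higher in tumour NK, a GTPase that was not called, and Irf3, which was lower. Each is the 250 bases before the start on the gene's own strand, 5′ to 3′, with response element cores in capitals (GAAA pairs, or TTTC pairs where the match is on the other strand).
Isg15, chr4:156200819-156201068, minus strand: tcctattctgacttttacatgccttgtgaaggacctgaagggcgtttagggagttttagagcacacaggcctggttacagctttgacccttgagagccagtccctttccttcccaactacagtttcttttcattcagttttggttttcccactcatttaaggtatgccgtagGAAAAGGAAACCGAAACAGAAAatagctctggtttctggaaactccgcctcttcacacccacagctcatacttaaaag
Ifit1, chr19:34640639-34640888, plus strand: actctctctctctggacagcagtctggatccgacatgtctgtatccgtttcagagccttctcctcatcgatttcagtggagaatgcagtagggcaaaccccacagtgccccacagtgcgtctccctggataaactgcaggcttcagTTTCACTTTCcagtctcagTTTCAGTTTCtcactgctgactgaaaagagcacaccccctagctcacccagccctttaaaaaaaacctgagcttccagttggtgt
Ifit3, chr19:34583279-34583528, plus strand: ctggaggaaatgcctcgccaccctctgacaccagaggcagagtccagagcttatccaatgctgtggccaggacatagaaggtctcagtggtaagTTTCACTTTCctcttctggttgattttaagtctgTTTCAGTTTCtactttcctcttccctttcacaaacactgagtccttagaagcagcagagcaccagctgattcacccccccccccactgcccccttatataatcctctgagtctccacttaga
Igtp, chr11:58199306-58199555, plus strand: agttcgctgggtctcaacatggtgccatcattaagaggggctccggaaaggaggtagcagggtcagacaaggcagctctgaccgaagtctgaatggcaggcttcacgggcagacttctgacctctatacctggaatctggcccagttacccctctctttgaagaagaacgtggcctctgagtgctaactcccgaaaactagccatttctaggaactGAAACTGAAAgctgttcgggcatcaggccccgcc
Gbp7, chr3:142530086-142530335, plus strand: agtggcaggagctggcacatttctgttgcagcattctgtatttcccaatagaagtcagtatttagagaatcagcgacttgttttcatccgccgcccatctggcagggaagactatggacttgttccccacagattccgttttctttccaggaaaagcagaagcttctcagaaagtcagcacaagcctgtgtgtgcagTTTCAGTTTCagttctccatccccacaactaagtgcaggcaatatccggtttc
Irf3, chr7:44997398-44997647, plus strand: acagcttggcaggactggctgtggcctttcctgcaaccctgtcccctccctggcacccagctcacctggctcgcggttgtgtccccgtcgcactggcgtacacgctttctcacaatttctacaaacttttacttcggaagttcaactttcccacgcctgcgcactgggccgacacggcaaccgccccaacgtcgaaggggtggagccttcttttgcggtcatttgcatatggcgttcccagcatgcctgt

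The Isg15 window holds 3 overlapping cores and those of Ifit1 and Ifit3 hold 2 each. Igtp and Gbp7 hold 1 core each, and the Irf3 window holds none. A core was present in 31 of the 61 members with a window (50.8%), against 3.99% of 27025 genes with a window. Members that were higher in tumour NK than in tumour-bearing spleen NK held it in 16 of 33 cases (48.5%), and members not called held it in 10 of 18 (55.6%). The shares of these 2 classes lay close together, but they rest on 33 and 18 members and their difference was not tested. A member that was not called may still have risen. Irf2 was the 1 of 3 called-lower members with a window that held a core. The gamma-activated site letters were present in 15 members (24.6%) against 9.55% of genes, in 10 of 33 higher members (30.3%) and in 3 of 18 not called (16.7%). A match of letters is a description of the window and says nothing of binding.

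Of the tested members more were called higher than lower in NK cells from the tumour against either spleen, and few differed between the spleens. Against tumour-bearing spleen NK, 44 of the 72 tested members were higher and 5 lower in tumour NK (61.1% and 6.94%). Among all genes tested 15.8% were higher and 13.2% lower. In the spleen libraries alone 61 members passed the count filter. Isg20, Mx2, Ifit1, Ifit3, Ifi202b, Slfn5, Rsad2, Iigp1, Parp12, Oas1a and Slfn3 passed only with the tumour libraries, where they were high. A higher call of these members was thus favoured by the filter in both tumour comparisons. The members' counts, shares and medians in both comparisons include them. The median log2 fold change was 0.883 over the members and 0.00171 over all genes, and the members ran from −1.77 to 4.69. Groups did not overlap for 41 members with tumour NK on top and 5 with tumour NK below, where all genes gave 16.5% and 13.3%. The lower count was 3 without tumour-bearing spleen replicate 3, without tumour replicate 3 or without tumour replicate 4. All genes gave 814, 1041 and 895 lower in these fits, beside 1115 with every library. All adjusted p-values given here come from edgeR's quasi-likelihood test with Benjamini-Hochberg adjustment over all genes tested, and a member was called at an adjusted p under 0.05. In these bulk samples fewer cells of a type and less RNA per cell cannot be told apart.

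Against healthy spleen NK, 40 members were higher and 8 lower (55.6% and 11.1%), where all genes gave 16.5% and 14.0%. The median was 0.882 for members and 0.0167 for all genes. Groups did not overlap for 42 members upward and 6 downward, against 18.5% and 16.3% of all genes. The lower count was 5 without healthy spleen replicate 2, without tumour replicate 2 or without tumour replicate 4. All genes gave 783, 977 and 975 lower in these fits, beside 1182 with every library. Both comparisons share the tumour libraries, and 39 members were called higher in both and 5 lower in both. Shared libraries favour like calls for any gene and the same count over all genes was not made, so these counts are a description only. Between the 2 spleens 1 member was higher and 1 lower in tumour-bearing mice, where all genes gave 1.23% and 0.354%. At an unadjusted p under 0.05 there were 9 of the 72 tested members in that comparison, beside 952 of all 8471 genes tested, which is a like share. After adjustment 70 members were not called. Groups did not overlap for 2 members upward and 3 downward, beside 6.52% and 5.70% of all genes.

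Summed over the 79 members, the level was 6117, 5647 and 5672 CPM in healthy spleen NK, 5952, 5867, 5809 and 6030 in tumour-bearing spleen NK, and 9654, 10197, 9556 and 9648 in tumour NK. All 4 tumour libraries stood above all 7 spleen libraries, and the spleen groups overlapped. The sum is weighted by abundant members, above all Irf8, and without Irf8 it was 5166 to 5627, 4890 to 5179 and 7269 to 8172 CPM. The heat map of all tested members shows the same parting by library.

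**Figure D1:**
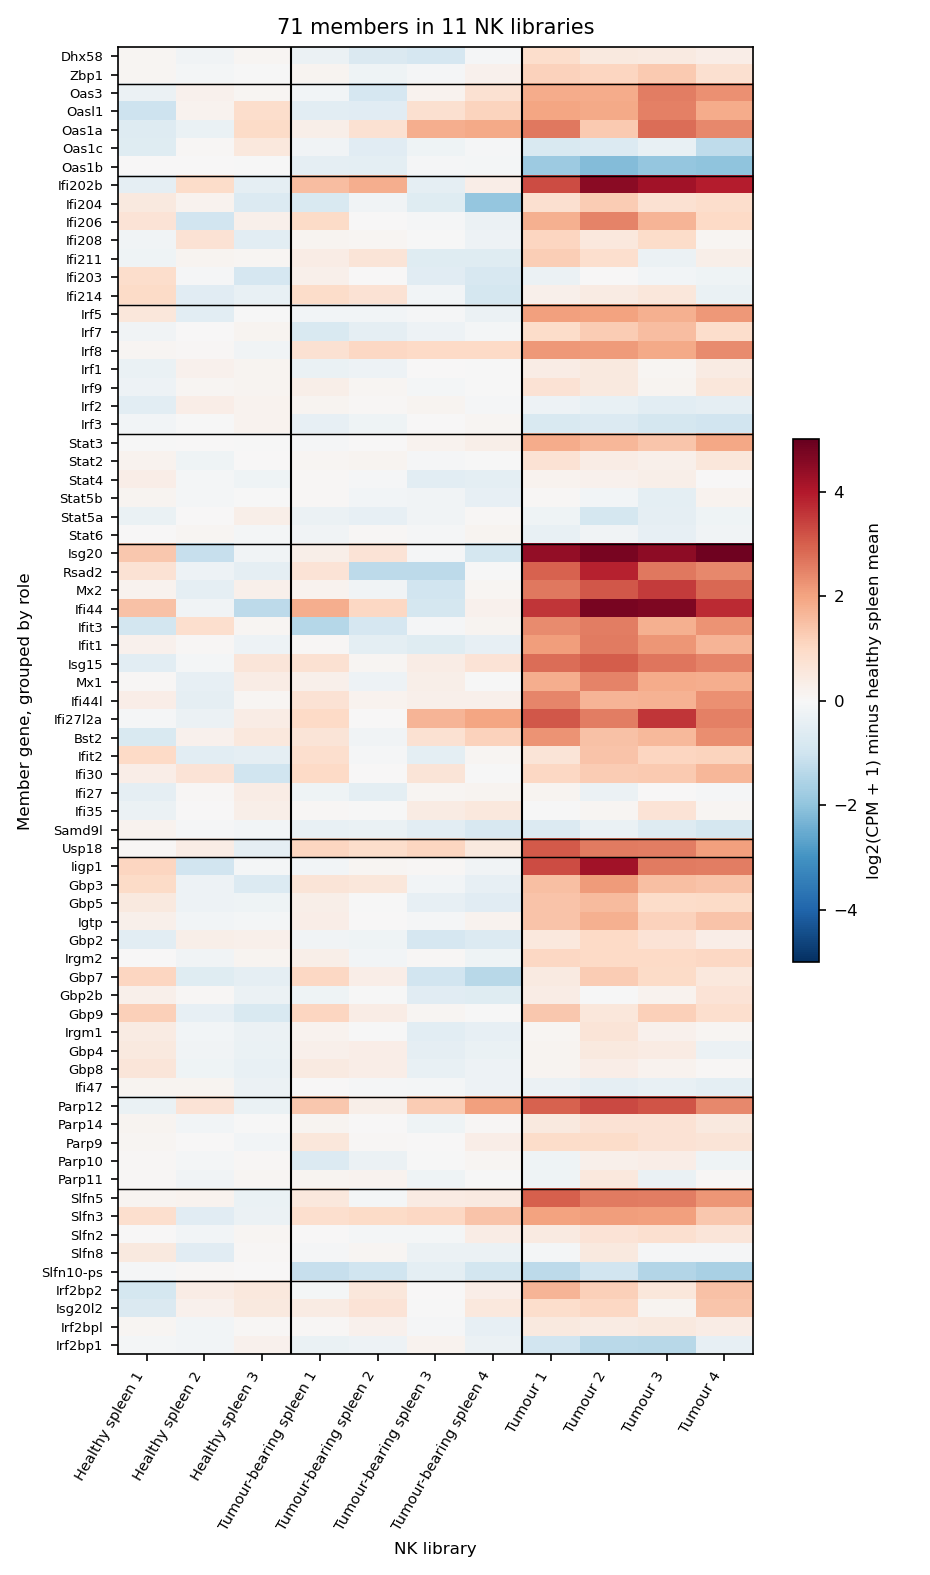
Each row is one of 71 tested members, grouped by role, and each column an NK library; colour gives log2(CPM + 1) minus the mean of the 3 healthy spleen libraries. The 4 tumour columns are mostly red, with Isg20 and Ifi44 among the deepest, whereas Oas1b and Slfn10-ps are blue; differences run from −2.16 to 4.85.

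Of 16 tested effectors, which act on viral RNA, proteins or particles or carry interferon-induced names, 13 were higher in tumour NK than in tumour-bearing spleen NK and none was called lower, with a median log2 fold change of 1.91. Isg20, an exonuclease that degrades RNA, was at 13.8, 1.60 and 4.10 CPM in healthy spleen NK, 6.06, 8.33, 4.61 and 2.16 in tumour-bearing spleen NK and 121, 154, 128.5 and 166 in tumour NK. Every tumour library lay above every spleen library, by 4.69 ± 0.33 (SE, adjusted p = 2.52e-08) against tumour-bearing and 4.87 ± 0.40 (SE, adjusted p = 1.77e-07) against healthy spleen NK on the log2 scale. Isg15, a ubiquitin-like protein that is attached to other proteins, was at 19.9, 27.1 and 44.3 CPM in healthy spleen NK, 50.02, 31.1, 37.9 and 47.5 in tumour-bearing spleen NK and 205, 241, 192.5 and 165.5 in tumour NK. Here too the tumour libraries lay above all spleen libraries, by 2.28 ± 0.19 (SE, adjusted p = 3.54e-08) and 2.67 ± 0.23 (SE, adjusted p = 4.54e-08) on the log2 scale.

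The Ifit genes encode proteins that bind foreign RNA, and those in the table lie together on chromosome 19. Ifit1 was at 6.13, 5.32 and 4.10 CPM in healthy spleen NK, 5.31, 3.33, 3.07 and 3.60 in tumour-bearing spleen NK and 25.3, 36.0, 27.5 and 18.9 in tumour NK, with a log2 fold change of 2.80 ± 0.30 (SE, adjusted p = 7.21e-07) against tumour-bearing spleen NK. Ifit3 was at 1.53, 7.45 and 4.10 CPM in healthy spleen NK, 0.76, 1.67, 3.58 and 4.32 in tumour-bearing spleen NK and 23.6, 27.4, 15.6 and 21.8 in tumour NK, with a log2 fold change of 2.99 ± 0.40 (SE, adjusted p = 1.22e-05). The groups did not overlap for either gene in either tumour comparison. Ifit2 was at 26.1, 8.51 and 9.03 CPM in healthy spleen NK, 23.5, 12.2, 8.70 and 13.7 in tumour-bearing spleen NK and 20.4, 36.0, 28.1 and 28.4 in tumour NK, and tumour replicate 1 lay below tumour-bearing spleen replicate 1. Its log2 fold change of 0.97 ± 0.33 (SE, adjusted p = 0.0352) was called, and the call was lost without tumour-bearing spleen replicate 2, 3 or 4 or without tumour replicate 2, 3 or 4, with adjusted p from 0.0757 to 0.123. Ifit1bl1 and Ifit3b had too few counts for a test, at no more than 5.77 and 4.18 CPM in any library.

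Mx1 and Mx2, dynamin-like GTPases that block virus replication, lie next to each other on chromosome 16 and are annotated as transcribed pseudogenes in the reference used here. Mx2 was at 4.60, 2.66 and 4.92 CPM in healthy spleen NK, 4.55, 3.33, 1.53 and 4.32 in tumour-bearing spleen NK and 30.2, 41.8, 55.0 and 35.0 in tumour NK, a log2 fold change of 3.60 ± 0.32 (SE, adjusted p = 5.88e-08). Mx1 ran from 5.32 to 9.85 CPM over the spleen libraries and from 28.4 to 46.2 in the tumour, a log2 fold change of 2.02 ± 0.27 (SE, adjusted p = 8.81e-06). The neighbours Ifi44 and Ifi44l on chromosome 3 were both higher. Ifi44 was at 16.9, 4.79 and 1.64 CPM in healthy spleen NK, 22.0, 12.2, 2.56 and 6.47 in tumour-bearing spleen NK and 75.8, 174.5, 164 and 86.0 in tumour NK, a log2 fold change of 3.58 ± 0.57 (SE, adjusted p = 0.00125), and its spleen libraries themselves spread from 1.64 to 22.0 CPM. Ifi44l was at 10.7, 5.85 and 9.03 CPM in healthy spleen NK, 14.4, 9.44, 10.2 and 10.1 in tumour-bearing spleen NK and 48.9, 28.8, 29.9 and 44.4 in tumour NK, a log2 fold change of 1.80 ± 0.25 (SE, adjusted p = 1.88e-05).

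Rsad2 (viperin), which makes a chain-terminating nucleotide, was at 3.06, 1.06 and 0.82 CPM in healthy spleen NK, 3.03, 0, 0 and 1.44 in tumour-bearing spleen NK and 17.9, 34.6, 14.3 and 12.3 in tumour NK. The spleen groups averaged under 3 counts per library, so no fold is given; all 4 tumour libraries lay above all spleen libraries (adjusted p = 3.6e-05 and 0.00042). Bst2 (tetherin), which holds virus particles at the cell surface, ran from 16.9 to 66.2 CPM in the spleens and from 82.2 to 151 in the tumour, a log2 fold change of 1.31 ± 0.29 (SE, adjusted p = 0.00471). Ifi27l2a, whose coordinates overlap those of Ifi27 so that reads of the pair may be mixed, was at 19.9, 17.0 and 27.1 CPM in healthy spleen NK, 42.4, 21.1, 71.1 and 84.9 in tumour-bearing spleen NK and 186, 128, 261 and 126 in tumour NK. Ifi27l2a was higher in tumour NK by 1.70 ± 0.40 (SE, adjusted p = 0.00978) against tumour-bearing and 3.07 ± 0.51 (SE, adjusted p = 0.00138) against healthy spleen NK on the log2 scale. Ifi30, a lysosomal thiol reductase, had a log2 fold change of 0.93 ± 0.34 (SE, adjusted p = 0.0466), and that call was lost without any 1 of the 4 tumour libraries or without tumour-bearing spleen replicate 2, 3 or 4 (adjusted p from 0.0536 to 0.138). Against healthy spleen NK the Ifi30 value was 1.22 ± 0.40 (SE, adjusted p = 0.028), it moved to 1.87 without healthy spleen replicate 2, and it was not called without healthy spleen replicate 3 or tumour replicate 3 or 4 (adjusted p = 0.154, 0.054 and 0.0771).

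The other 3 effectors were not called against tumour-bearing spleen NK. Ifi27 was at 172, 241.5 and 300.3 CPM in healthy spleen NK, 197, 164, 249 and 256 in tumour-bearing spleen NK and 256, 190.4, 237 and 221 in tumour NK, a log2 difference of 0.068 ± 0.17 (SE, adjusted p = 0.801), and Ifi35, which binds the partner protein Nmi, was at 150.2, 182.5 and 221 CPM in healthy spleen NK, 188, 179, 240 and 266 in tumour-bearing spleen NK and 178, 195, 295 and 197 in tumour NK, a log2 difference of −0.0061 ± 0.17 (SE, adjusted p = 0.986). The groups overlapped for both. Samd9l, a growth-restraining antiviral protein, was at 280.5, 239 and 224 CPM in healthy spleen NK, 189.5, 194, 169.9 and 141 in tumour-bearing spleen NK and 153, 196, 159 and 133 in tumour NK. All tumour and all tumour-bearing spleen libraries lay below all healthy libraries, with log2 fold changes of −0.63 ± 0.15 (SE, adjusted p = 0.00449) for tumour NK, which was called, and −0.51 ± 0.15 (SE, adjusted p = 0.121) for tumour-bearing spleen NK, which was not. Usp18, the protease that removes Isg15 and dampens the type I receptor, was at 6.13, 7.98 and 4.10 CPM in healthy spleen NK, 13.6, 11.7, 13.3 and 8.63 in tumour-bearing spleen NK and 56.2, 40.4, 40.1 and 27.4 in tumour NK. Tumour NK was higher by 1.79 ± 0.25 (SE, adjusted p = 2.1e-05) against tumour-bearing and 2.69 ± 0.33 (SE, adjusted p = 3.28e-06) against healthy spleen NK on the log2 scale. Between the spleens Usp18 did not overlap, at 0.90 ± 0.36 (SE, adjusted p = 0.295), but was not called.

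**Figure D2:**
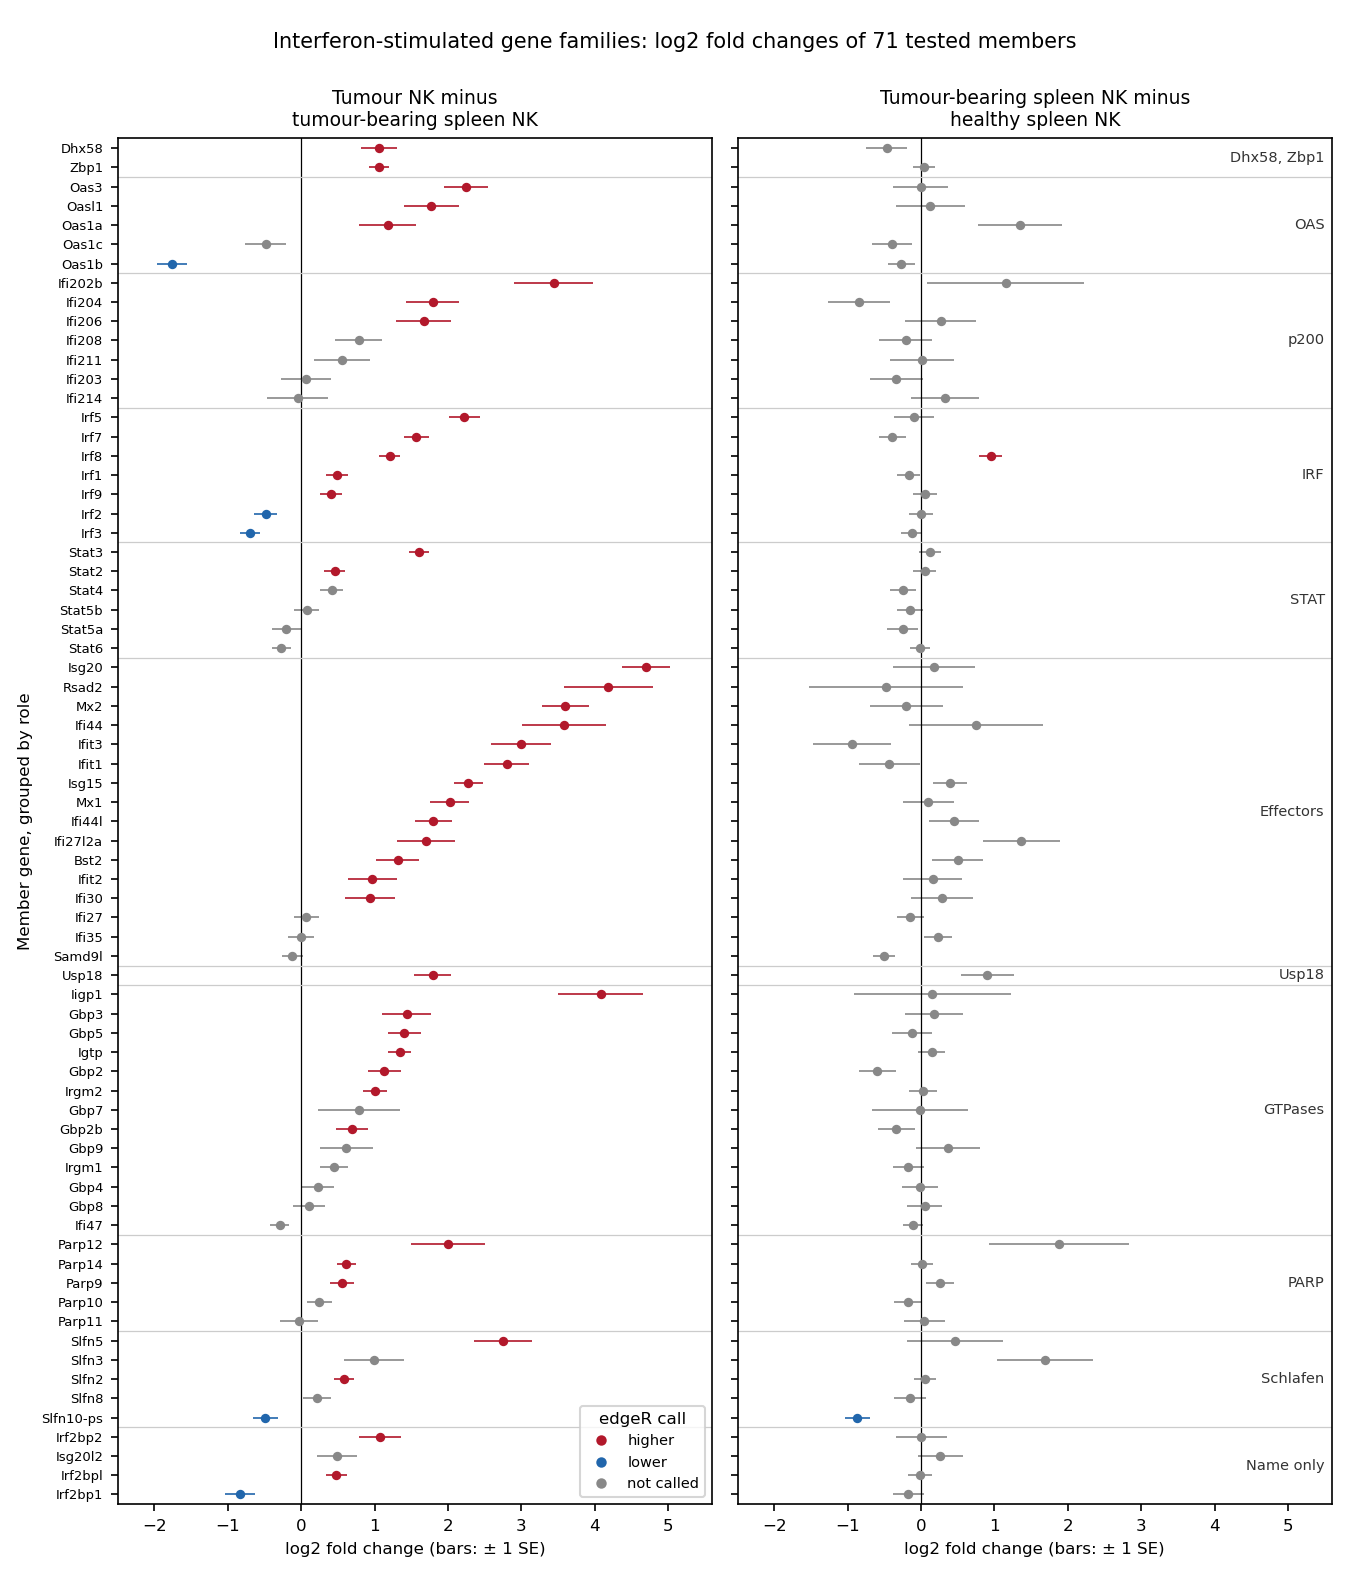
Points are log2 fold changes of 71 tested members with bars of ± 1 SE, for tumour NK minus tumour-bearing spleen NK (left) and tumour-bearing minus healthy spleen NK (right), coloured by call. On the left 43 points are called higher and 5 lower, while on the right Irf8 alone is called higher and Slfn10-ps alone lower. The fits of Rsad2 and Iigp1 rest on spleen means under 3 counts per library. On the right those of Ifi202b, Parp12, Slfn3 and Slfn5 also rest on a healthy spleen mean under 3 counts per library.

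Zbp1 and Dhx58, nucleic acid sensors outside the Oas and p200 families, were higher than in tumour-bearing spleen NK. Oas and p200 members, some of them sensors too, follow below and were not all higher. Zbp1, which binds left-handed nucleic acid and can start cell death, ran from 118 to 158 CPM over the spleen libraries and from 235 to 335 in tumour NK, a log2 fold change of 1.06 ± 0.14 (SE, adjusted p = 7.96e-06). Dhx58 (LGP2), a helicase that regulates RNA sensing, was higher against tumour-bearing spleen NK by 1.06 ± 0.24 (SE, adjusted p = 0.00282). Its value of 0.59 ± 0.27 (SE, adjusted p = 0.102) against healthy spleen NK was not called.

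Oas proteins make the second messenger that turns on RNase L, and 4 of them lie together on chromosome 5. Oas3 was at 6.13, 9.04 and 8.20 CPM in healthy spleen NK, 6.82, 3.88, 8.70 and 13.7 in tumour-bearing spleen NK and 30.2, 30.3, 50.8 and 41.6 in tumour NK, a log2 fold change of 2.25 ± 0.30 (SE, adjusted p = 9.53e-06), and the tumour libraries were the highest. Oasl1, a catalytically inactive relative that restrains Irf7 translation, ran from 4.60 to 23.7 CPM in the spleens and from 40.7 to 63.4 in tumour NK, a log2 fold change of 1.77 ± 0.37 (SE, adjusted p = 0.00266). Oas1a was at 1.53, 2.13 and 6.56 CPM in healthy spleen NK, 3.79, 5.55, 12.8 and 13.7 in tumour-bearing spleen NK and 23.6, 8.65, 26.3 and 19.9 in tumour NK. Its groups overlapped between tumour and tumour-bearing spleen, with tumour replicate 2 below tumour-bearing spleen replicates 3 and 4, and its log2 fold change of 1.18 ± 0.39 (SE, adjusted p = 0.0304) was not called without tumour-bearing spleen replicate 1 or 2 or tumour replicate 1, 3 or 4 (adjusted p from 0.0625 to 0.12). Oas1a was higher than in healthy spleen NK by 2.53 ± 0.54 (SE, adjusted p = 0.00153). Oas1b is annotated as a transcribed pseudogene in the reference used here. It was lower in tumour NK, whereas Oas1a and Oas3 of the same cluster were higher. Oas1b was at 49.0, 49.0 and 47.6 CPM in healthy spleen NK, 35.6, 33.9, 46.1 and 45.3 in tumour-bearing spleen NK and 13.0, 10.1, 11.96 and 11.3 in tumour NK. All tumour libraries lay below all spleen libraries, with log2 fold changes of −1.77 ± 0.20 (SE, adjusted p = 1.88e-06) and −2.03 ± 0.22 (SE, adjusted p = 7.15e-07). Oas1c, next to Oas1b, was at 13.8, 22.9 and 32.0 CPM in healthy spleen NK, 18.9, 14.4, 18.4 and 20.9 in tumour-bearing spleen NK and 12.2, 13.0, 16.7 and 8.51 in tumour NK. It was called lower against healthy spleen NK, with a log2 fold change of −0.88 ± 0.30 (SE, adjusted p = 0.0315), and not against tumour-bearing spleen NK, at −0.48 ± 0.28 (SE, adjusted p = 0.208). The first call was lost without healthy spleen replicate 2 or 3 or tumour replicate 1, 2 or 4 (adjusted p from 0.0527 to 0.224). Oas1a, Oas1b and Oas1c are close copies in sequence, and reads could be shared among them.

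The p200 genes, a cluster on chromosome 1 whose proteins bind DNA or regulate such sensors, were mostly not called: of 7 tested members 3 were higher than in tumour-bearing spleen NK and 4 were not called. Ifi202b was at 0, 1.60 and 0 CPM in healthy spleen NK, 3.03, 3.88, 0 and 0.72 in tumour-bearing spleen NK and 12.2, 30.3, 23.9 and 19.9 in tumour NK, and every tumour library was above every spleen library. The fold against tumour-bearing spleen NK was 3.44 ± 0.54 (SE, adjusted p = 9.5e-05) on the log2 scale, where the control mean was 3 counts per library. No fold is given against healthy spleen NK, whose libraries held 0 to 3 counts (adjusted p = 0.000134). Ifi204, a DNA sensor, had a log2 fold change of 1.79 ± 0.36 (SE, adjusted p = 0.000929) and Ifi206 one of 1.67 ± 0.37 (SE, adjusted p = 0.00263). The Ifi204 value of 0.95 ± 0.38 (SE, adjusted p = 0.0673) against healthy spleen NK was not called, but it was called without healthy spleen replicate 1 (adjusted p = 0.0421) or tumour-bearing spleen replicate 4 (0.0442). Ifi208 was at 0.78 ± 0.32 (SE, adjusted p = 0.0733) and was called without tumour replicate 4 (adjusted p = 0.0434). Ifi203, Ifi211 and Ifi214 had log2 differences of 0.064, 0.56 and −0.049. These genes are close copies, so their counts are uncertain.

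Immunity GTPases mark and open the vacuoles in which microbes live. Of 13 tested members 7 were higher in tumour NK than in tumour-bearing spleen NK, and 5 were higher and 1 lower against healthy spleen NK. Iigp1 was at 3.06, 0 and 0.82 CPM in healthy spleen NK, 0.76, 1.11, 1.02 and 0.72 in tumour-bearing spleen NK and 17.9, 34.6, 10.8 and 10.4 in tumour NK, so the spleen levels were under 3 counts per library on average and no fold is given (adjusted p = 2.23e-05 and 0.000147). Igtp was at 62.8, 47.4 and 49.2 CPM in healthy spleen NK, 66.7, 53.8, 51.2 and 59.7 in tumour-bearing spleen NK and 145, 183, 119 and 144 in tumour NK, a log2 fold change of 1.34 ± 0.16 (SE, adjusted p = 1.9e-06). Its neighbour Irgm2 on chromosome 11 ran from 27.3 to 39.4 CPM in the spleens and from 63.5 to 66.2 in tumour NK, a log2 fold change of 1.01 ± 0.17 (SE, adjusted p = 0.000105), and the tumour libraries of both genes lay above all spleen libraries. Irgm1, elsewhere on the same chromosome, had a log2 difference of 0.44 ± 0.20 (SE, adjusted p = 0.0965) and was not called. Ifi47 was at 288, 294 and 217 CPM in healthy spleen NK, 266, 251, 247 and 221.5 in tumour-bearing spleen NK and 218, 193, 204 and 189 in tumour NK. It was called lower against healthy spleen NK, with a log2 fold change of −0.40 ± 0.14 (SE, adjusted p = 0.0351), and not called without healthy spleen replicate 1 or 2 or tumour replicate 2 or 4 (adjusted p from 0.0629 to 0.182).

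The guanylate-binding proteins lie in a cluster on each of 2 chromosomes. Of 5 members on chromosome 3, 4 were higher than in tumour-bearing spleen NK: Gbp3 by 1.44 ± 0.34 (SE, adjusted p = 0.00821), Gbp5 by 1.40 ± 0.23 (SE, adjusted p = 9.76e-05), Gbp2 by 1.13 ± 0.23 (SE, adjusted p = 0.000751) and Gbp2b by 0.69 ± 0.22 (SE, adjusted p = 0.0261). The Gbp2b call was lost without tumour-bearing spleen replicate 3 or 4 or tumour replicate 1 or 4 (adjusted p from 0.0586 to 0.107). Gbp7 was not called, at 0.79 ± 0.56 (SE, adjusted p = 0.333), with levels of 18.9 and 13.7 CPM in tumour-bearing spleen replicates 3 and 4 and of 77.3 and 48.3 in replicates 1 and 2. None of the 3 members on chromosome 5 was called: Gbp4, Gbp8 and Gbp9 had log2 differences of 0.22, 0.1 and 0.61. Gbp9 was called without healthy spleen replicate 1 (adjusted p = 0.0423). Of these Gbp genes only Gbp3, at 1.61 ± 0.39 (SE, adjusted p = 0.00942), and Gbp5, at 1.28 ± 0.26 (SE, adjusted p = 0.000864), were higher than in healthy spleen NK. Gbp3 lost that call without healthy spleen replicate 2 (adjusted p = 0.0529), and Gbp9, at 0.98 ± 0.43 (SE, adjusted p = 0.104), was called without healthy spleen replicate 1 (log2 1.62, adjusted p = 0.000311).

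Several Gbp and p200 values differed with the spleen libraries that stood beside the tumour. Tumour-bearing spleen replicates 1 and 2 and healthy spleen replicate 1 part from the other 4 spleen libraries, and the labels give no batch for this. The sides were seen in these same counts, so adjusted p-values of the fits by side may be too small. The Spearman rho between a gene's GC content and its deviation from the mean of all libraries was −0.273 to −0.187 in the first 3, 0.265 to 0.514 in the other 4, and −0.323 to −0.123 in tumour NK. The summed level of the 13 GTPases was 1003 and 889 CPM in tumour-bearing spleen replicates 1 and 2 and 675 and 655 in replicates 3 and 4, against 1032 to 1353 in tumour NK. That of the 9 p200 genes was 244 and 213 against 137 and 109 CPM, with 204 to 301 in tumour NK. With replicates 1 and 2 alone as the control, 38 of 71 tested members were higher and 4 lower (53.5% and 5.63%), where all genes gave 13.8% and 9.04%. With replicates 3 and 4 alone, 50 of 72 were higher and 5 lower (69.4% and 6.94%), where all genes gave 22.4% and 18.5%, so calls were more frequent on that side over all genes too. Of the 49 calls, 39 were made in the same direction on both sides, 35 higher and 4 lower. The log2 difference of Gbp7 was 0.11 on the first side and 1.98 (adjusted p = 1.28e-06) on the second. Gbp4, Gbp8, Gbp9, Irgm1, Ifi203 and Ifi211 were called on the second side only, with log2 fold changes from 0.46 to 1.26. Of the 10 calls not made on both sides, Gbp2b, Ifi30, Ifit2, Irf2bpl, Irf9, Parp9, Slfn10-ps and Stat2 were not made on the first side and Irf1 and Oas1a not on the second. Oas1a had the larger value on the first side, with 2.09 on the first and 0.63 on the second, where it was not called. Isg20, Isg15, Igtp and Irgm2 were called on both sides.

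**Figure D3:**
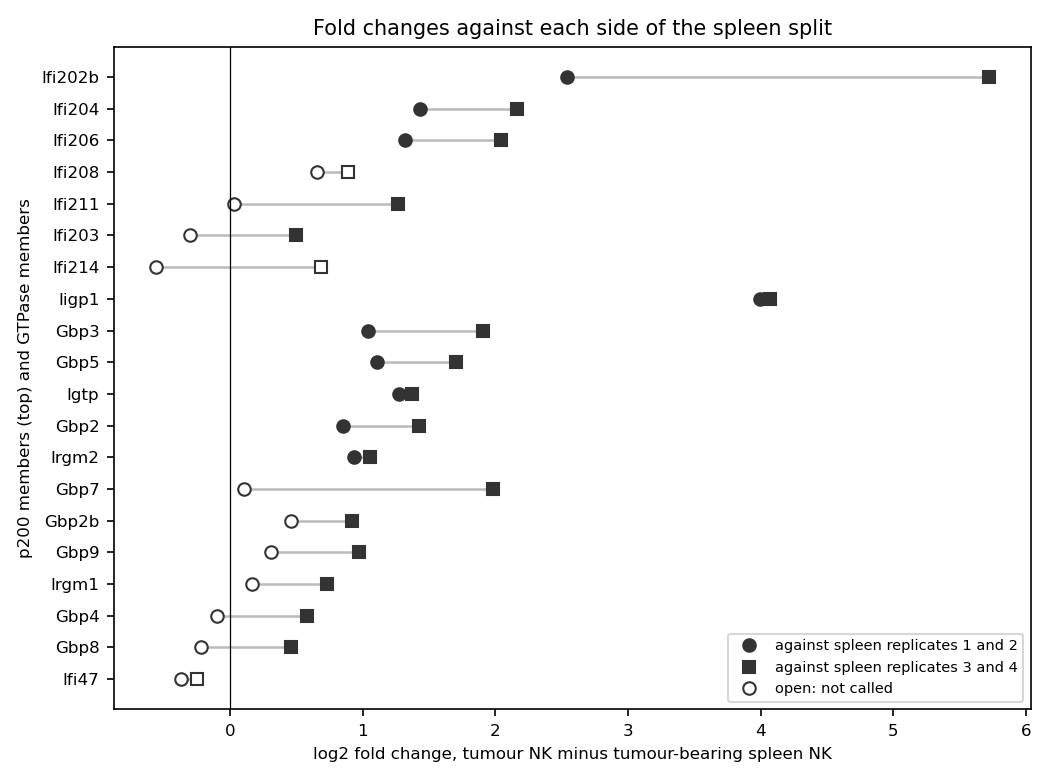
Log2 fold changes of the tested p200 and GTPase members in tumour NK against tumour-bearing spleen replicates 1 and 2 (circles) or 3 and 4 (squares); open symbols were not called. Igtp and Irgm2 differ little between the sides, while Gbp7 moves from 0.11 to 1.98. The Iigp1 points, and the Ifi202b point against replicates 3 and 4, rest on fewer than 3 counts per spleen library.

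The interferon regulatory factors, transcription factors that switch on interferon and interferon-stimulated genes, moved in both directions. Against tumour-bearing spleen NK 5 of 7 tested were higher and 2 lower. Irf8, a factor of myeloid and NK cell development, was at 490.5, 481.5 and 407 CPM in healthy spleen NK, 773, 940.2, 919 and 909 in tumour-bearing spleen NK and 2068, 2025, 1695 and 2379 in tumour NK. The 3 groups did not overlap: tumour-bearing spleen NK lay above healthy spleen NK by 0.95 ± 0.16 (SE, adjusted p = 0.0025) on the log2 scale and tumour NK above tumour-bearing spleen NK by 1.21 ± 0.14 (SE, adjusted p = 2.65e-06). It was the 1 member called higher in all 3 comparisons. Irf8 is also abundant in dendritic cells, whose marker Zbtb46 was higher in tumour NK at log2 1.76 ± 0.34 (SE, adjusted p = 0.000579) but not called between the spleens at log2 0.51 ± 0.48 (SE, adjusted p = 0.793).

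Irf7, the main amplifier of type I interferon, was at 221, 249.5 and 272 CPM in healthy spleen NK, 145.5, 178, 206 and 229 in tumour-bearing spleen NK and 465, 601, 720.5 and 458 in tumour NK, a log2 fold change of 1.56 ± 0.17 (SE, adjusted p = 7.05e-07). Irf5, which acts in inflammatory cytokine induction, was at 21.5, 9.58 and 13.9 CPM in healthy spleen NK, 12.9, 12.8, 13.8 and 11.5 in tumour-bearing spleen NK and 62.0, 60.6, 50.8 and 68.1 in tumour NK, a log2 fold change of 2.22 ± 0.21 (SE, adjusted p = 1.56e-07). For both, all tumour libraries lay above all spleen libraries. Irf1, an early interferon gamma target, was at 282, 408 and 390.5 CPM in healthy spleen NK, 279, 299, 359 and 352 in tumour-bearing spleen NK and 459, 500.4, 376 and 477 in tumour NK. It was higher against tumour-bearing spleen NK by 0.49 ± 0.15 (SE, adjusted p = 0.0168) and not called against healthy spleen NK (0.32 ± 0.16 (SE, adjusted p = 0.138)), and the first call was lost without tumour-bearing spleen replicate 1 (adjusted p = 0.0573) or tumour replicate 2 (0.0505). Irf9, the DNA-binding partner of STAT proteins, was at 82.8, 105 and 107 CPM in healthy spleen NK, 120.5, 105, 92.1 and 97.1 in tumour-bearing spleen NK and 159.8, 138, 107 and 145 in tumour NK. Tumour replicate 3 lay within the range of tumour-bearing spleen NK. Its values of 0.40 ± 0.15 (SE, adjusted p = 0.0454) and 0.46 ± 0.16 (SE, adjusted p = 0.0385) were calls near the threshold: the first was lost without tumour-bearing spleen replicate 2, 3 or 4, healthy spleen replicate 2 or 3 or tumour replicate 1, 2 or 4 (adjusted p from 0.0535 to 0.153), and the second without any 1 healthy spleen library or tumour replicate 1, 2 or 4 (0.0615 to 0.127).

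Irf3, which starts interferon production after virus sensing, was at 264, 289 and 326.5 CPM in healthy spleen NK, 222, 251, 293 and 310 in tumour-bearing spleen NK and 173, 182, 158 and 151 in tumour NK. All tumour libraries lay below all spleen libraries, with log2 fold changes of −0.70 ± 0.14 (SE, adjusted p = 0.000634) and −0.83 ± 0.15 (SE, adjusted p = 0.000234). Irf2, which competes with Irf1 for the same sites, was at 76.6, 140.5 and 124 CPM in healthy spleen NK, 121, 116, 122 and 106 in tumour-bearing spleen NK and 92.1, 85.1, 75.9 and 79.4 in tumour NK, with log2 fold changes of −0.49 ± 0.16 (SE, adjusted p = 0.0261) and −0.49 ± 0.17 (SE, adjusted p = 0.0374). Healthy spleen replicate 1 lay within the tumour range. The call against tumour-bearing spleen NK was lost without tumour-bearing spleen replicate 3 or tumour replicate 3 or 4 (adjusted p from 0.056 to 0.0601). Against healthy spleen NK it was lost without tumour replicate 2, 3 or 4 or healthy spleen replicate 3 (0.0617 to 0.129), and without healthy spleen replicate 2, where the log2 value moved to −0.31 (adjusted p = 0.288). With an offset for GC content and length the Irf2 values moved to −0.89 and −0.96 (adjusted p = 0.0106 and 0.0103). Irf4 had too few counts for a test and was at 3.06, 2.13 and 4.92 CPM in healthy spleen NK, 6.82, 1.67, 10.2 and 6.47 in tumour-bearing spleen NK and 2.44, 2.88, 1.196 and 2.84 in tumour NK, with tumour NK at 2.88 CPM or less.

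**Figure D4:**
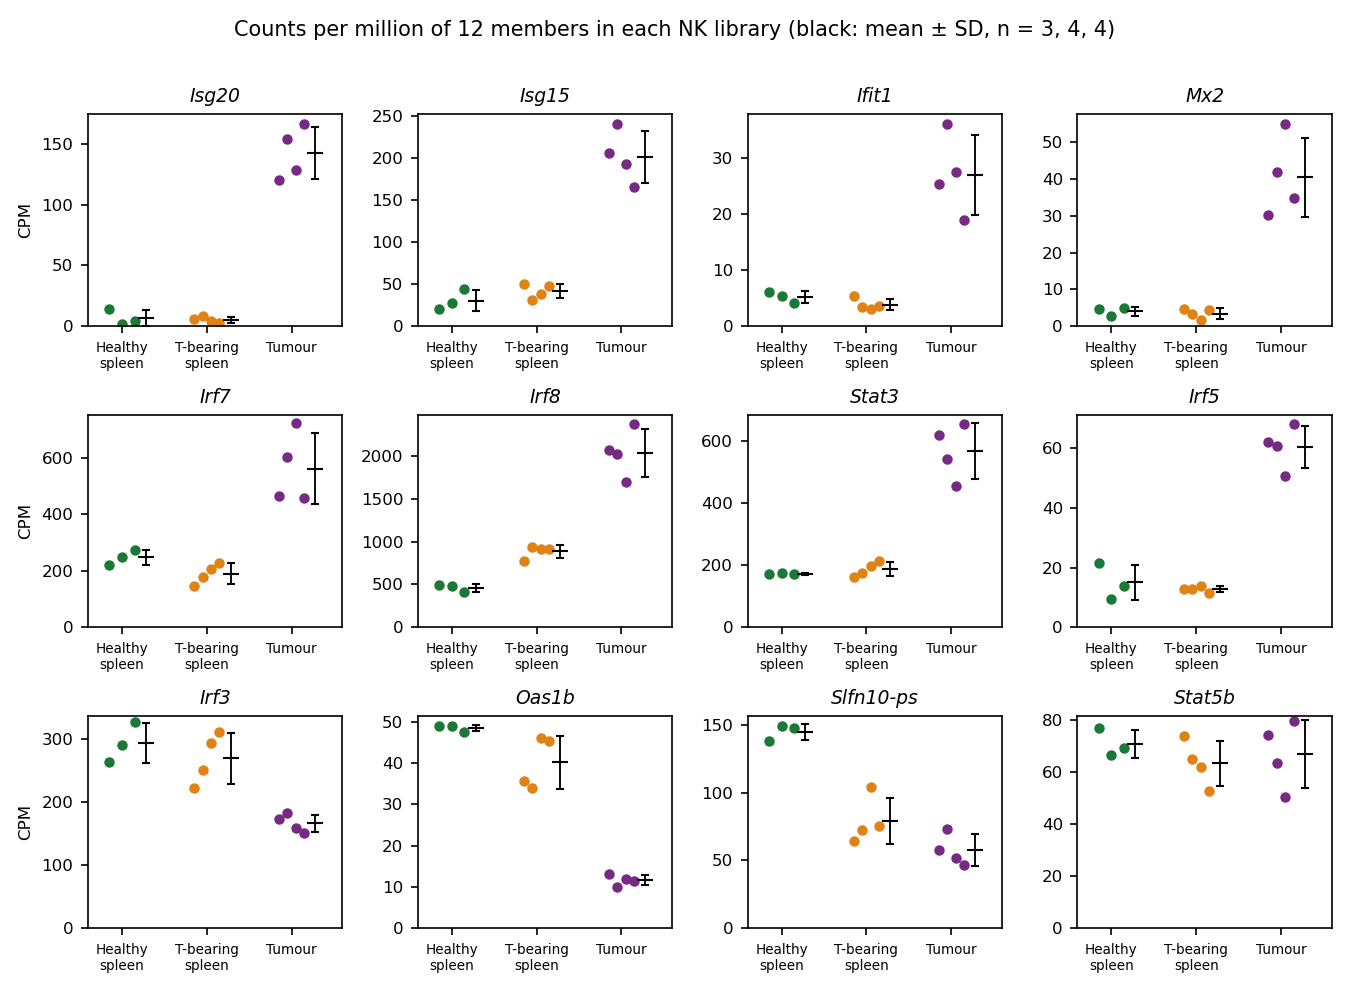
Points are CPM of 12 members in each NK library, and black marks give the mean ± SD of each group (n = 3, 4 and 4). Irf8 steps up from healthy to tumour-bearing spleen to tumour, Isg20, Isg15, Ifit1, Mx2, Irf7, Irf5 and Stat3 are highest in tumour NK, Irf3 and Oas1b are lowest there, and Stat5b overlaps.

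The STAT genes encode the signal transducers themselves. Stat2 and Stat3 were higher in tumour NK in both comparisons, and Stat4, Stat5a, Stat5b and Stat6 were not called in either. Stat3, the main transducer of interleukin 6 and interleukin 10 type cytokines, was at 170.1, 173 and 169.8 CPM in healthy spleen NK, 162, 175, 195.5 and 212 in tumour-bearing spleen NK and 619.5, 541, 453 and 655 in tumour NK. The groups did not overlap and the log2 fold changes were 1.60 ± 0.14 (SE, adjusted p = 4.73e-08) and 1.73 ± 0.16 (SE, adjusted p = 9.4e-08). Stat5a and Stat5b, its neighbours on chromosome 11 and the transducers of interleukin 2 and interleukin 15, were not called. Stat5a was at 32.2, 41.5 and 49.2 CPM in healthy spleen NK, 32.6, 30.0, 35.8 and 42.4 in tumour-bearing spleen NK and 34.2, 21.6, 29.3 and 35.0 in tumour NK, a log2 difference of −0.20 ± 0.20 (SE, adjusted p = 0.478). Stat5b was at 76.6, 66.5 and 68.9 CPM in healthy spleen NK, 73.5, 64.9, 61.9 and 52.5 in tumour-bearing spleen NK and 74.2, 63.5, 50.2 and 79.4 in tumour NK, a log2 difference of 0.072 ± 0.17 (SE, adjusted p = 0.78). The groups overlapped for both.

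Stat2, a transducer of the type I receptor, was at 82.8, 63.8 and 75.5 CPM in healthy spleen NK, 78.8, 81.0, 70.1 and 72.6 in tumour-bearing spleen NK and 121.5, 95.2, 87.9 and 109.7 in tumour NK, with log2 fold changes of 0.45 ± 0.14 (SE, adjusted p = 0.023) and 0.50 ± 0.16 (SE, adjusted p = 0.0231). The tumour libraries were the highest, but the first call was lost without tumour-bearing spleen replicate 3 or 4 or tumour replicate 1 or 4 (adjusted p from 0.0555 to 0.091), and the second without healthy spleen replicate 2 or 3 or tumour replicate 1 or 4 (0.0545 to 0.152). Stat4, which carries the interleukin 12 signal to interferon gamma, was at 538, 397 and 363 CPM in healthy spleen NK, 441, 414, 297 and 302 in tumour-bearing spleen NK and 485, 495, 529.7 and 428 in tumour NK. Its difference of 0.41 ± 0.16 (SE, adjusted p = 0.0575) was not called, but it was called without tumour-bearing spleen replicate 1 (adjusted p = 0.0362) or 2 (0.0477) or healthy spleen replicate 1 (0.03). Stat6, the interleukin 4 transducer, was at 262, 272 and 239.6 CPM in healthy spleen NK, 227, 269, 246 and 279.8 in tumour-bearing spleen NK and 197, 231, 193 and 229 in tumour NK. Its difference of −0.27 ± 0.12 (SE, adjusted p = 0.113) was not called, but it was called without tumour-bearing spleen replicate 1 (adjusted p = 0.0459), with upper-quartile scaling (0.0265) and with an offset for GC content and length (0.0276).

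PARP family members attach ADP-ribose to proteins, and 3 of the 5 were higher in both tumour comparisons. Parp14 ran from 79.8 to 103 CPM in the spleens and from 130 to 153 in tumour NK, a log2 fold change of 0.61 ± 0.13 (SE, adjusted p = 0.00151). Parp12 was higher by 2.00 ± 0.50 (SE, adjusted p = 0.00528) against tumour-bearing spleen NK. In healthy spleen NK it had at most 1.06 CPM, so no fold is given there (adjusted p = 0.000749). Parp9 was higher by 0.56 ± 0.17 (SE, adjusted p = 0.0181), a call that was lost without tumour-bearing spleen replicate 2 or 3 or tumour replicate 1 (adjusted p = 0.0584, 0.0743 and 0.0568). Parp10 and Parp11 had log2 differences of 0.25 and −0.035 and were not called.

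Schlafen genes, a chromosome 11 cluster that acts on lymphocyte quiescence and on RNA, were split as well. Slfn5 was at 1.53, 1.60 and 0.82 CPM in healthy spleen NK, 2.27, 1.11, 2.05 and 2.16 in tumour-bearing spleen NK and 17.1, 13.0, 12.6 and 9.45 in tumour NK, with all tumour libraries on top and a log2 fold change of 2.75 ± 0.40 (SE, adjusted p = 2.63e-05) against tumour-bearing spleen NK, whose mean was 3 counts per library. Slfn2, needed for quiescence of T cells, ran from 316 to 443 CPM in the spleens and from 474 to 591 in tumour NK, a log2 fold change of 0.58 ± 0.14 (SE, adjusted p = 0.0031). Slfn3 was called against healthy spleen NK only, where spleen counts were too few for a fold (adjusted p = 0.00242), and Slfn8 was not called, at 0.22 ± 0.20 (SE, adjusted p = 0.44). Slfn10-ps, annotated as a non-coding RNA, was at 138, 149 and 148 CPM in healthy spleen NK, 64.4, 72.7, 104 and 75.5 in tumour-bearing spleen NK and 57.9, 73.5, 52.0 and 46.3 in tumour NK. Tumour-bearing spleen NK lay below healthy spleen NK without overlap, at a log2 fold change of −0.87 ± 0.17 (SE, adjusted p = 0.00963), as did tumour NK, at −1.36 ± 0.18 (SE, adjusted p = 9.65e-06). The spleen call was lost without healthy spleen replicate 2 (adjusted p = 0.0872) or 3 (0.0527). Tumour and tumour-bearing spleen libraries overlapped, and the value of −0.49 ± 0.17 (SE, adjusted p = 0.0372) was not called without tumour-bearing spleen replicate 3 or tumour replicate 1, 3 or 4 (adjusted p from 0.0721 to 0.165). Slfn1 and Slfn9 had too few counts for a test, and reads may be shared within the cluster.

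The 4 members matched by name alone did not move as a set. Irf2bp1, a partner of Irf2, was at 59.8, 58.5 and 74.7 CPM in healthy spleen NK, 50.02, 53.8, 71.7 and 51.8 in tumour-bearing spleen NK and 32.6, 24.5, 23.9 and 47.3 in tumour NK, with log2 fold changes of −0.83 ± 0.21 (SE, adjusted p = 0.00526) and −1.01 ± 0.23 (SE, adjusted p = 0.00222) in tumour NK. Irf2bp2 was higher by 1.08 ± 0.29 (SE, adjusted p = 0.00798) and Irf2bpl by 0.48 ± 0.15 (SE, adjusted p = 0.0202) against tumour-bearing spleen NK. The Irf2bpl call was lost without tumour-bearing spleen replicate 3 (adjusted p = 0.0558) or 4 (0.0752), and against healthy spleen NK (0.46 ± 0.17 (SE, adjusted p = 0.0407)) without any 1 library of the 11 other than healthy spleen replicate 1 and tumour-bearing spleen replicates 2 and 4 (0.0552 to 0.19). Irf2bp2, at 1.08 ± 0.33 (SE, adjusted p = 0.0164) against healthy spleen NK, lost that call without tumour replicate 1 (adjusted p = 0.0661). Isg20l2 was not called in either comparison, but without tumour replicate 3 it was in both (adjusted p = 0.047 and 0.017). Without these 4 genes 42 members were higher and 4 lower against tumour-bearing spleen NK.

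The spleen comparison gave more calls when the split of the spleen libraries entered the fit as a block. No label gives this split. It was seen in the counts of these same libraries, and its first side holds only healthy spleen replicate 1 of the healthy group. The adjusted p-values of the block fit may therefore be too small, and its calls are a description only. In that fit of the 7 spleen libraries 61 members were tested, and 3 were higher and 4 lower in tumour-bearing mice (4.92% and 6.56%), where all genes gave 5.35% and 2.99%. Calls thus rose over all genes as well, and the members' share of higher calls was near that of all genes. Irf8 (log2 0.95) was joined by Ifi27l2a (1.64, adjusted p = 8.48e-05) and Bst2 (0.68, 0.0317), and Slfn10-ps by Samd9l (−0.56, 0.000826), Ifi203 (−0.50, 0.0306) and Stat4 (−0.34, 0.0327). Ifi27l2a was at 19.9 CPM in healthy spleen replicate 1 beside 42.4 and 21.1 in tumour-bearing spleen replicates 1 and 2, and 17.0 and 27.1 beside 71.1 and 84.9 on the other side.

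Ligands, receptors, kinases and inhibitors of the pathway were listed separately. Of 26 such genes 21 were tested, and 4 were higher and 3 lower in tumour NK than in tumour-bearing spleen NK (19.0% and 14.3%). These shares lay near the 15.8% and 13.2% of all genes. Ifng, which encodes interferon gamma, was at 110.4, 187 and 165 CPM in healthy spleen NK, 366, 341, 467 and 256 in tumour-bearing spleen NK and 357, 301, 310.3 and 360.2 in tumour NK. It was higher in tumour-bearing than in healthy spleen NK by 1.19 ± 0.20 (SE, adjusted p = 0.00233), and the difference of tumour NK from tumour-bearing spleen NK was not called, at −0.11 ± 0.17 (SE, adjusted p = 0.682). T cells also make interferon gamma, and the T cell marker Cd3d was higher in tumour-bearing than in healthy spleen NK by 1.47 ± 0.26 (SE, adjusted p = 0.00445), while Cd3g was not called, at 0.45 ± 0.25 (SE, adjusted p = 0.535). The 3 of 6 T cell markers in the table summed to 42.9 to 78.8, 98.8 to 148 and 64.3 to 105 CPM in healthy spleen, tumour-bearing spleen and tumour NK, and their part in the Ifng value was not tested. Socs3, a cytokine-induced inhibitor of JAK kinases, was at 24.5, 35.6 and 29.5 CPM in healthy spleen NK, 34.9, 40.0, 38.4 and 20.9 in tumour-bearing spleen NK and 327, 278, 258 and 291 in tumour NK, a log2 fold change of 3.09 ± 0.17 (SE, adjusted p = 1.17e-10). The receptor chain Ifngr1 was higher by 1.33 ± 0.15 (SE, adjusted p = 1.88e-06), the inhibitor Socs1 by 1.16 ± 0.25 (SE, adjusted p = 0.00301) and the kinase Jak2 by 1.00 ± 0.15 (SE, adjusted p = 2.93e-05). The type I receptor chains Ifnar1 and Ifnar2 had log2 differences of 0.0076 and 0.15 and were not called. Lower in tumour NK were Tyk2, the kinase of the type I receptor, at −0.94 ± 0.14 (SE, adjusted p = 4.01e-05), the adaptor Mavs at −0.75 ± 0.18 (SE, adjusted p = 0.00338) and the phosphatase Ptpn6 at −0.48 ± 0.12 (SE, adjusted p = 0.00648). Ifnb1, Ifngr2, Tlr3, Tlr7 and Tlr9 were not analysed here.

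Interferon-stimulated genes outside the name rule were listed separately, 47 in all, of which 35 were tested. Tumour NK was higher than tumour-bearing spleen NK for 12 (34.3%) and lower for none, where all genes gave 15.8% and 13.2%. Among the 12, Ly6a, Cxcl10, Cmpk2 and Ddx60 were at 7.58 CPM or less in every spleen library. Their higher calls may thus have been favoured by the count filter, and the shares in both tumour comparisons include such genes. The median log2 fold change of the list was 0.323. Ly6a, a surface protein of activated lymphocytes, was at 3.06, 0.53 and 2.46 CPM in healthy spleen NK, 2.27, 3.33, 1.53 and 2.16 in tumour-bearing spleen NK and 126, 75.0, 69.4 and 105 in tumour NK, so both spleen groups were near the counting limit. Cxcl10, a chemokine for T and NK cells, was at 6.13, 3.19 and 4.92 CPM in healthy spleen NK, 7.58, 6.11, 1.53 and 4.32 in tumour-bearing spleen NK and 148, 203, 112 and 125 in tumour NK, a log2 fold change of 4.93 ± 0.29 (SE, adjusted p = 5.58e-10). Cmpk2, the neighbour of Rsad2, was higher by 2.98 ± 0.36 (SE, adjusted p = 3.67e-06), and Eif2ak2 (PKR) by 1.45 ± 0.22 (SE, adjusted p = 4.17e-05). Of the genes that serve antigen presentation, B2m was higher by 0.74 ± 0.16 (SE, adjusted p = 0.00147), Tap1 by 0.65 ± 0.12 (SE, adjusted p = 0.000492) and Psme1 by 0.40 ± 0.14 (SE, adjusted p = 0.0346). Tap2, Psmb8, Psmb9 and Psmb10 had log2 differences of 0.10, 0.18, 0.085 and −0.11 and were not called. Of the 35, 14 were higher than in healthy spleen NK and 1 lower (40.0% and 2.86%), where all genes gave 16.5% and 14.0%.

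The sCAF libraries, 3 samples of PDPN-negative cancer-associated fibroblasts from the same tumour model, are counted in a separate table and were not compared with NK cells by any test. Of the members 73 are in both tables, 8 in the sCAF table only and 6 in the NK table only. Irf1 was at 1525, 1302 and 1197 CPM on raw totals in sCAF replicates 1 to 3, Bst2 at 351, 360.4 and 306, and Isg15 at 242, 140.4 and 129. The GTPases Igtp (426, 273 and 125 CPM) and Gbp2 (422, 299 and 173 CPM) were highest in replicate 1 and lowest in replicate 3.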

How the data were processed

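Bulk RNA 3′ end counts were used for 11 NK libraries and, for levels only, 3 sCAF libraries. The authors deposited unnormalized read counts by gene symbol. Per the submitters' processing notes bcl2fastq, STAR 2.4.2a and HTSeq were used with mm10, and annotation, strand setting and molecular identifiers are not given in the sources used here. The lowest maximum of any listed NK gene over the libraries was 6 counts, and totals are sums over listed genes. One header gap was resolved by column position. Replicates are called independent in the labels; p-values measure the spread between these samples.

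Counts were fitted in edgeR 4.0.16 (R 4.3.3; filterByExpr, TMM, robust quasi-likelihood, group only, all 11 libraries), with adjustment over 8471 genes in each of 3 contrasts. Members and lists were chosen with earlier results of these data known. Values in every library are given for the 10 largest non-overlapping calls per contrast with at least 3 counts per library in the lower group, the 5 most abundant uncalled members, members called lower, and the Irf and Stat genes, of which 1 member is not reported here by itself; other members given so were picked after their values were seen. Scripts were tested on simulated data. Alternatives were RLE and upper-quartile scaling, no filter, DESeq2 1.42.0, fewer groups, a 2-fold minimum, a replicate block, a GC and length offset, no close-copy clusters, each library left out, and the spleen split. The limit that a count of 0 allows covers counting error only.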

Additional observations from a re-analysis of the deposited data

Results flagged for a closer look

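In 144 groups of 4 libraries (each tested member in tumour NK and in tumour-bearing spleen NK), 8 held a library whose gap to its nearest neighbour passed Dixon's 95% value, where chance gives about 7.2. Tumour replicate 2 was the highest tumour library for Gbp3 (204.8 CPM, next 133.7), Mx1 (46.15, next 29.3), Slfn8 (138.4, next 94.54) and Ifi204 (21.63, next 16.07). Tumour replicate 3 was the highest for Ifi35 (295.4 CPM, next 196.7) and Oasl1 (63.38, next 44.02). Tumour replicate 4 was the lowest for Slfn3 (4.727 CPM, next 8.152). Tumour-bearing spleen replicate 1 was the highest of its group for Ifi44l (14.4 CPM, next 10.24).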

How the results depend on the processing

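No call of a member turned its direction under any alternative. Of 49 calls against tumour-bearing spleen NK, 37 held under every alternative other than the 2-fold minimum, and 38 of 48 did against healthy spleen NK. With the 2-fold minimum 17 members were higher and 1 lower against tumour-bearing, 22 and 1 against healthy, and 0 and 0 between the spleens. All genes then gave 334 and 57, 385 and 90, and 6 and 2 in that order. Leaving out 1 library gave 37 to 46 higher and 3 to 6 lower, 34 to 41 and 5 to 8, and 1 and 0 to 1 in the same order. Over all genes these fits gave 1055 to 1477 higher and 814 to 1317 lower against tumour-bearing. They gave 1053 to 1565 and 783 to 1399 against healthy, and 35 to 110 and 7 to 32 between the spleens. Between the spleens DESeq2 called 2 higher, the GC and length offset 2 lower, and the split block 3 higher and 4 lower. Over all genes DESeq2 called 126 higher, the offset 75 lower, and the block 443 higher and 248 lower. The main fit gave 104 and 30. The offset ended the calls of Ifit2, Irf2bp2 and Irf2bpl and gave 8 lower against tumour-bearing spleen NK. Lower calls over all genes rose there too, from 1115 to 1491. Without close-copy clusters 3, 5 and 0 members were lower in the 3 comparisons. Of the calls over all genes 54.5% were higher against tumour-bearing spleen NK, and 41.6% with upper-quartile scaling, where members gave 38 higher and 7 lower. The offset moved the median of all genes against healthy spleen NK from 0.0167 to −0.0939, beside a members' median of 0.683. The replicate block gave 45 higher and 5 lower, 42 and 6, and 1 and 1. With it all genes gave 1452 and 1173, 1469 and 1178, and 97 and 18. The labels do not say that the numbers pair samples, so they were not taken as pairs. Deviations of same-numbered tumour and tumour-bearing spleen libraries correlated at −0.0471, 0.288, 0.00249 and 0.211. Those of differently numbered libraries correlated at −0.252 to 0.158. Replicates 2 and 4 lay above that range, so these values do not settle whether samples were paired. Depth limits members near 3 counts, such as Rsad2, Iigp1, Slfn3 and Parp12. The cause of these changes was not tested.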
